A study of Homo sapiens with 8 samples.

Results

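Flat (2-D) co-cultures of human neural cells that carried the tag AcCoc were compared directly with those that carried the tag AcMor, without going through the vehicle cultures. The cells derived from the established human embryonic stem cell line H1. Their RNA was sequenced cell by cell after split-pool barcoding, a method without droplets that marks a cell by the series of wells it passed through. The members were all cells whose names begin with the co-culture arrangement 2DCocu and either drug tag, numbered 1 to 4. They made up 6624 of the 43693 cells in the series: 3495 AcCoc cells in 4 tags (899, 1263, 860 and 473 cells) and 3129 AcMor cells in 4 tags (496, 753, 502 and 1378 cells). The series text names cocaine, morphine and dopamine as the agents, and AcCoc and AcMor are read here as the cocaine and the morphine cultures. The sources used here give neither the meaning of Ac, nor the doses, exposure times or culture age, nor which cell types were brought together. Both groups share the line and the arrangement, and the third group of the arrangement, Vehic (3790 cells in 4 tags), is used only where it is named, as a description or an alternative fit. Whether the 4 tags of a drug are separate cultures is not stated, so p-values measure the spread between tags, which may be technical. In a fit described below, p-values draw little on each gene's own spread between tags.

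Cocaine blocks the reuptake transporters for dopamine (SLC6A3), noradrenaline (SLC6A2) and serotonin (SLC6A4), and it also acts on voltage-gated sodium channels. Morphine activates the mu-opioid receptor (OPRM1), which couples to inhibitory G proteins, lowers the production of cyclic AMP by adenylyl cyclases and opens inward-rectifying potassium channels. The drugs therefore meet the cell at different proteins, although dopamine receptors and opioid receptors both feed into cyclic AMP signalling and its transcription factors. A direct contrast asks where the transcriptional states of the cultures differ from each other.

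Summed over all cells of a tag, deposited estimated counts came to 5759440 to 20104216 per tag, with a median of 9422 to 14301 per cell. None of 5 measures differed between the drugs in two-sided exact permutation tests over the 70 arrangements of 4 tags against 4, whose smallest possible p is 0.0286. The p-values were 0.743 for cells, 1 for total counts, 0.971 for median counts per cell, 0.771 for genes per cell and 0.657 for the mitochondrial share (3.84 to 4.29% against 3.96 to 4.51%). Each tag carried 1 barcode of its own at the end of its cell names, so tag and barcode cannot be told apart. The barcoding round it belongs to is not stated. Cells of every tag were spread over all 8 sublibraries. Tags of the same drug differed by more than counting noise, with a chi-square per degree of freedom of 5.41 to 29.9, and none was taken for a second deposit of another.

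Over all cells, edgeR called no gene between AcCoc and AcMor. Of 20465 genes tested on counts summed per tag, 0 passed a Benjamini-Hochberg adjusted p of 0.05 in edgeR's quasi-likelihood test (0%), and the lowest adjusted p was 0.528. At an unadjusted p of 0.05 or less, 406 genes were higher with AcCoc (1.98%) and 540 were lower (2.64%). DESeq2 called 1 gene, IQCJ-SCHIP1 (adjusted p 0.00373), and limma on cells scaled to equal totals called 0. The 4 AcCoc tags lay wholly on one side of the 4 AcMor tags for 621 genes (3.03%), with 369 higher and 252 lower. The intervals give the size of difference that the tags could still hold: the 95% interval lay within a 2-fold change in either direction for 18428 genes (90.0%) and within 1.5-fold for 11699 (57.2%).

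Within cell classes edgeR called 4 genes, all lower with AcCoc than with AcMor: IQCJ-SCHIP1, ADCY8 and CNTN3 in excitatory neuron-like cells and NKAIN2 in ciliated or ependymal-like cells. Classes came from clusters of these 6624 cells, named from marker genes and therefore written with -like. A class was tested where every tag held at least 20 of its cells, which left 3 classes. In excitatory neuron-like cells (1762 cells, 138 to 327 per tag) 3 of 12811 genes were called (0.0234%), in ciliated or ependymal-like cells (1117 cells, 72 to 222 per tag) 1 of 13627 (0.00734%) and in neuron-like cells (421 cells, 28 to 83 per tag) 0 of 8233 (0%). In the last class 325 genes had an unadjusted p of 0.05 or less, the lowest adjusted p was 0.408, and DESeq2 called 0. In the excitatory neuron-like class DESeq2 called 44 genes, 11 of them higher with AcCoc, and in the ciliated or ependymal-like class 3, with 0 higher. Without the filter on low counts, edgeR called 87 genes in excitatory neuron-like cells (38 of them higher), 26 in ciliated or ependymal-like cells (4 higher) and 14 in neuron-like cells (7 higher, lowest adjusted p 0.00144). In the excitatory fit without the filter, edgeR's unadjusted p for IQCJ-SCHIP1 was 2.19e-26, against 1.05e-07 with it. The log2 fold changes were -1.11 and -1.13. Intervals of that unfiltered fit were close to those of a normal distribution, so its p-values draw little on each gene's own spread between tags. Some genes called in it, such as ELMO1, had overlapping tags. This limit holds for all later values of that class given without the filter. With the 34671 tests of the 3 classes adjusted together, edgeR called the same 4 genes, with adjusted p from 0.00325 to 0.0405.

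IQCJ-SCHIP1 is a readthrough gene whose protein joins an IQ-motif part to SCHIP1, which binds ankyrin at axon initial segments and nodes of Ranvier. It spans positions 158962235 to 159897366 on the plus strand of chromosome 3 (GRCh38, GENCODE 29). In excitatory neuron-like cells its level was 191, 264, 281 and 270 CPM (counts relative to the tag's scaled total) in AcCoc tags 1 to 4 and 615, 610, 437 and 550 CPM in AcMor tags 1 to 4. The highest AcCoc tag lay below the lowest AcMor tag. The means were 252 ± 41.1 and 553 ± 83.1 CPM (SD, n = 4 each), a log2 fold change of -1.13 (95% interval -1.40 to -0.86), with an edgeR adjusted p of 0.00120. SCHIP1 itself, which lies inside IQCJ-SCHIP1 on the same strand (159839861 to 159897360), stood at 7.08 against 5.70 CPM and was not called. The division of reads common to both gene models is not stated, and the level of either alone is uncertain.

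ADCY8 encodes an adenylyl cyclase that calcium and calmodulin stimulate, and it is a member of the cyclic AMP list below. Its level was 87.8, 97.6, 97.7 and 93.1 CPM in the AcCoc tags and 208, 160, 181 and 157 CPM in the AcMor tags. The AcCoc tags lay close together and all below the AcMor tags. The means were 94.0 ± 4.69 and 177 ± 23.4 CPM (SD, n = 4 each), a log2 fold change of -0.90 (95% interval -1.13 to -0.67), with an edgeR adjusted p of 0.00120.

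CNTN3 encodes contactin 3, a cell adhesion molecule of the immunoglobulin family anchored to the neuronal membrane, and lies at positions 74262568 to 74521140 on the minus strand of chromosome 3 (GRCh38, GENCODE 29). Its level was 49.0, 47.6, 55.9 and 51.4 CPM with AcCoc and 117, 95.1, 72.0 and 104 CPM with AcMor. The groups did not overlap, and AcMor tag 3 came nearest to the AcCoc tags. The means were 51.0 ± 3.65 and 97.1 ± 18.9 CPM (SD, n = 4 each), a log2 fold change of -0.92 (95% interval -1.23 to -0.62), with an edgeR adjusted p of 0.0199. The call was lost with some tags left out: the adjusted p was 0.0621 without AcCoc tag 2, 0.0975 without AcMor tag 1 and 0.164 without AcMor tag 4, at log2 fold changes from -1.04 to -0.84 over all 8 omissions. IQCJ-SCHIP1 and ADCY8 were called whichever tag was left out, with adjusted p of at most 0.00456 and 0.00793.

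**Figure D1:**
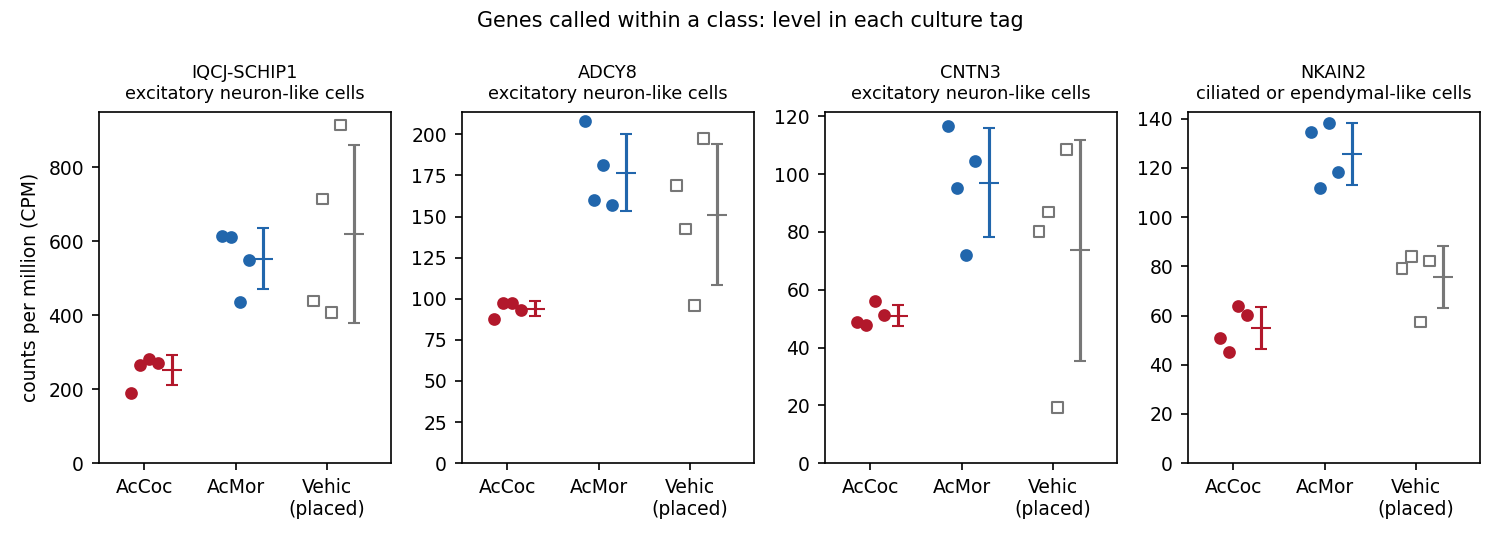
Level in CPM (vertical axes from 0, each panel with its own scale) of the 4 genes called within a class. Filled points are the 4 AcCoc and 4 AcMor tags, open squares are Vehic tags whose cells were placed in the class by their nearest neighbours, and bars give mean ± SD; the AcCoc points lie below every AcMor point in all 4 panels, for example 191 to 281 against 437 to 615 for IQCJ-SCHIP1.

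Vehicle cells were set beside these levels as a description, after the results were known, by giving each Vehic cell the commonest class of its 20 nearest AcCoc or AcMor cells. The excitatory neuron-like class then held 109, 104, 33 and 46 Vehic cells, fewer per tag than in either drug group. IQCJ-SCHIP1 was at 439, 715, 407 and 915 CPM in those tags, all above the AcCoc tags and spread around the AcMor tags. ADCY8 was at 169, 142, 96.0 and 197 CPM and CNTN3 at 80.2, 86.9, 19.2 and 108 CPM, and for both genes Vehic tag 3, the one with fewest such cells, lay within or below the AcCoc levels. When these Vehic tags were part of the fit, ADCY8 alone was called (adjusted p 0.0153), while IQCJ-SCHIP1 had an adjusted p of 0.0836 and CNTN3 of 0.212.

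The class is a union of 3 clusters of 957, 518 and 287 cells (clusters 0, 3 and 9), and the genes did not have the same level in each. In cluster 0, ADCY8 (97.4 to 144 CPM with AcCoc, 215 to 265 with AcMor, adjusted p 0.00469) and CNTN3 (log2 fold change -1.17, adjusted p 0.0266) were called. They were among 11 of 10444 genes that edgeR called there, 1 of them higher with AcCoc. RORB, DIAPH2 and ROBO2, described below, were others. IQCJ-SCHIP1 was at 90.1 to 301 against 360 to 570 CPM there (log2 fold change -1.31, adjusted p 0.412). In cluster 9 it was at 459 to 993 against 1063 to 1547 CPM (log2 fold change -0.91, adjusted p 0.148) and neither test passed. ADCY8 (log2 fold change -0.49, adjusted p 0.839) and CNTN3 (-0.41, adjusted p 0.997) were not called in cluster 9 either, and there the tags of the drugs overlapped for both. Cluster 3 held little of the 3 genes, with tag means of at most 50.3 CPM for IQCJ-SCHIP1, 25.6 for ADCY8 and 20.5 for CNTN3, and none was called (adjusted p 0.998 each). Its log2 fold changes were 0.55 for IQCJ-SCHIP1, -0.57 for ADCY8 and 0.59 for CNTN3. Whether the contrast differed between clusters was not tested.

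Cluster 3 also took a larger share of each AcCoc tag's cells (9.45, 9.66, 7.91 and 7.19%) than of each AcMor tag's (6.65, 6.24, 7.17 and 6.75%), with an exact permutation p of 0.0286, the smallest possible, and 0.210 after adjustment over 22 clusters. The part of this share in the class result was not tested. Within clusters 0 and 9, taken separately, the IQCJ-SCHIP1 levels of the drugs did not overlap. ADCY8 and CNTN3 were among the variable genes from which the clusters were made. IQCJ-SCHIP1 was not, because genes named over all cells had been kept out of that choice. Clustering again without the 4 called genes, of which IQCJ-SCHIP1 was already out, gave an excitatory neuron-like class of 1246 cells. Of these, 1245 were also in the first class, and 7 genes were called. This smaller class was made of clusters of 956 and 290 cells. A cluster of 591 cells that held 6 of the 8 excitatory markers was left without a name, and no cluster was named as intermediate progenitor or radial glia, classes that had held 226 and 276 cells. The 7 calls are therefore a test of fewer cells than the first class. They included IQCJ-SCHIP1 (log2 fold change -1.10, adjusted p 0.000266), ADCY8 (-0.83, adjusted p 0.00374) and CNTN3 (-0.96, adjusted p 0.00515).

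The summed level of the 8 excitatory markers was 833 to 1058 CPM with AcCoc and 937 to 1079 CPM with AcMor in this class. The 10 general neuron markers summed to 5842 to 6672 against 5771 to 6076 CPM, and the 8 mesenchymal markers to 52.3 to 95.03 against 53.1 to 99.5 CPM. The groups of tags overlapped in each of these sums.

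Elsewhere edgeR with its filter did not call the 3 genes. In neuron-like cells the log2 fold changes were 0.06 for IQCJ-SCHIP1, 0.16 for ADCY8 and 0.04 for CNTN3, and in ciliated or ependymal-like cells -0.66, -0.19 and -0.18. Over all cells they were -0.54, -0.29 and -0.30. IQCJ-SCHIP1 was called over all cells by DESeq2 (adjusted p 0.00373) and, without the filter on low counts, by edgeR over all cells (0.0240) and in ciliated or ependymal-like cells (0.00854). Whether excitatory neuron-like cells differ from other classes in this contrast was not tested.

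**Figure D2:**
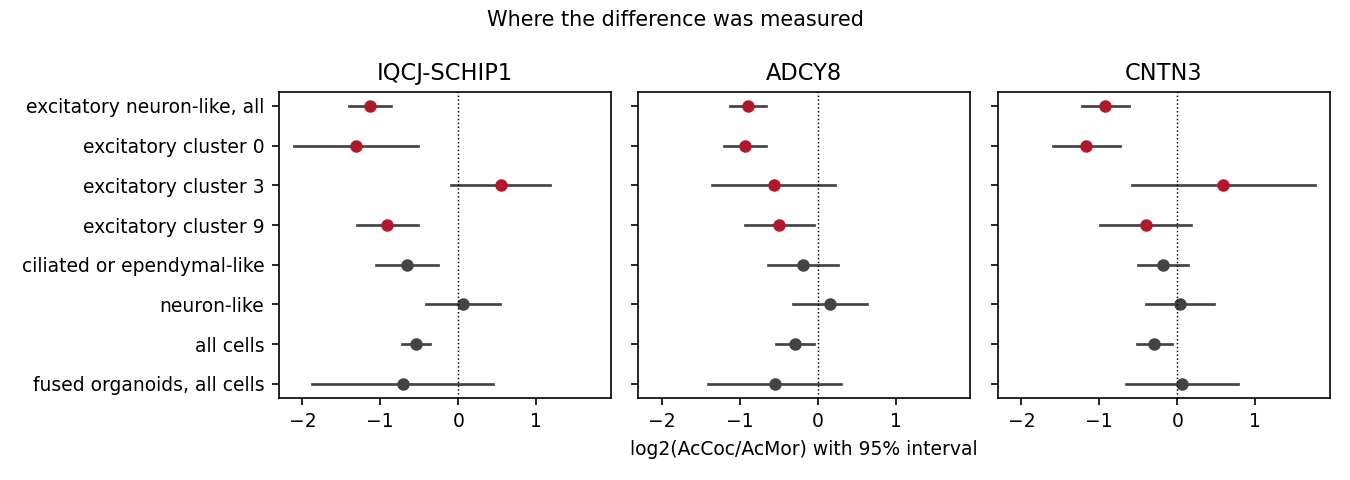
Log2 fold change of AcCoc over AcMor (horizontal axis, 0 means equal levels) with its 95% interval for IQCJ-SCHIP1, ADCY8 and CNTN3, by cluster, by class, over all cells and in fused organoids. Red points are excitatory neuron-like cells and grey points other sets of cells; IQCJ-SCHIP1 reaches -1.31 in cluster 0 and lies at 0.55 in cluster 3.

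Other genes came near the threshold of edgeR with its filter on low counts in the fit of all excitatory neuron-like cells. RORB, a transcription factor of cortical neurons that receive thalamic input, had a log2 fold change of -0.65, DIAPH2, an actin-nucleating formin, of -0.67, and RGS7BP, which anchors RGS7 G protein regulators to the membrane, of -0.71. Each had an edgeR adjusted p of 0.0845, and the tags did not overlap. DESeq2 called all 3, with an adjusted p of 0.00127 each, and so did edgeR without the filter (0.000273 for RORB, 0.000562 for DIAPH2 and 0.00359 for RGS7BP). In cluster 0 taken by itself, edgeR with its filter called RORB and DIAPH2.

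By list, the receptors of this class leaned lower with AcCoc. Across all 12811 genes tested in it, 301 were higher (2.35%) and 400 lower (3.12%) at an unadjusted p of 0.05 or less, and the median log2 fold change was 0.00079. Of 22 glutamate receptor genes tested, 15 had a negative log2 fold change, 5 of them at an unadjusted p of 0.05 or less and none higher, with a median of -0.18. The 5 were the kainate receptor subunit GRIK2 (-0.45), the AMPA receptor subunits GRIA2 (-0.41) and GRIA1 (-0.31), the metabotropic receptor GRM5 (-0.54) and the obligatory NMDA receptor subunit GRIN1 (-0.47). Of 12 GABA and glycine receptor genes tested, 9 had a negative value and 6 an unadjusted p of 0.05 or less, all lower, with a median of -0.23. Among these were GABRA2 (-0.51) and GABRB2 (-0.42), subunits of the GABA-A receptor, and GABBR2 (-0.34), a subunit of the GABA-B receptor. In edgeR no receptor of either list passed adjustment over all genes. DESeq2 called GRIK2 (adjusted p 0.00486) and GRIA2 (0.0210), and edgeR without the filter called GRIK2 (0.00412), GRM5 (0.00628) and GRIA2 (0.0252). Cluster 3 of this class, as above, was a larger share of each AcCoc tag (exact permutation p 0.0286, adjusted 0.210). The 6 intermediate progenitor markers summed to 56.1, 40.3, 27.0 and 20.7 CPM in the AcCoc tags of the class and to 23.6 to 26.5 CPM in the AcMor tags, with NEUROG1 at 0. The part of either in the receptor values was not tested. In ciliated or ependymal-like cells 3 of 21 glutamate receptor genes were higher (median -0.14) and 4 of 13 GABA and glycine receptor genes (median -0.25). In neuron-like cells the counts were 10 of 22 (median -0.03) and 7 of 13 (median 0.01).

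Cortical transcription factors went both ways. Of 28 tested, CUX2 (0.58), which marks upper-layer neurons, and FOXP2 (0.47), which marks deep-layer neurons, were higher at an unadjusted p of 0.05 or less. RORB and LMO3 (-0.53) were among those lower at that p. CUX2, like RORB, passed adjustment in DESeq2 (adjusted p 0.0210) and in edgeR without the filter (0.00027). Of 35 axon guidance genes, 3 were higher and 8 lower at that p. The slit ligand SLIT3 was at -0.71 (adjusted p 0.0845 in edgeR, 1.99e-05 in edgeR without the filter and 0.00127 in DESeq2). The semaphorin SEMA6A was at -0.46 and the slit receptor ROBO1 at -0.34, and DESeq2 called both (adjusted p 0.00834 and 0.0465). The related receptor ROBO2 was at 0.24 and the semaphorin SEMA3C at 0.24. In cluster 0 taken by itself, edgeR with its filter called ROBO2. Without the filter edgeR also called the netrin receptor UNC5D, higher with AcCoc (0.37, adjusted p 0.0156), with overlapping tags.

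The cyclic AMP and G protein list, which covers the enzymes and regulators that opioid and dopamine receptors act on, held 43 genes tested in excitatory neuron-like cells. By edgeR ADCY8 was the 1 called. DESeq2 also called PDE1C (adjusted p 0.0151), and edgeR without the filter called PDE1C (0.00412) and KCNJ6 (0.000562) as well. At an unadjusted p of 0.05 or less, the phosphodiesterase PDE1C (0.42), the inward-rectifying channel KCNJ6 (0.53) and the adenylyl cyclase ADCY6 (0.59) were higher. Besides ADCY8, the partner channel KCNJ3 (-0.51), the regulator RGS7 (-0.27), the phosphodiesterase PDE8B (-0.45) and the inhibitory G protein subunit GNAI1 (-0.39) were lower. The list's median was -0.03.

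NKAIN2, a membrane protein that interacts with the beta subunit of the sodium-potassium pump, was lower with AcCoc in ciliated or ependymal-like cells. The class was named from genes of motile cilia, whose 8 markers summed to 465 to 709.7 CPM over the tags of both drugs. The 10 radial glia markers summed to 2038 to 2702 CPM in it and the 8 dopaminergic neuron markers to 245 to 354 CPM, with TH at 0, so the name rests on the cilia genes alone. NKAIN2 lies at positions 123804141 to 124825657 on the plus strand of chromosome 6 (GRCh38, GENCODE 29). Its level was 50.9, 45.1, 63.8 and 60.1 CPM with AcCoc and 134, 112, 138 and 118 CPM with AcMor, with no overlap. The means were 55.0 ± 8.54 and 126 ± 12.6 CPM (SD, n = 4 each), a log2 fold change of -1.20 (95% interval -1.51 to -0.89), with an edgeR adjusted p of 0.00466. Vehic tags, placed and scaled as above, were at 79.1, 84.1, 57.3 and 82.1 CPM, all below the AcMor tags and reaching into the AcCoc range.

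The NKAIN2 call depended on AcCoc tag 1, without which the log2 fold change was -1.17 and the adjusted p 0.0522, and on the clustering. NKAIN2 was itself among the variable genes from which the clusters were made. Clustering without the called genes gave a log2 fold change of -1.04 and an adjusted p of 0.0674, and 0 genes called by edgeR. The class was also low in NKAIN2 compared with neurons, which held 1929 CPM with AcCoc and 2117 with AcMor in the neuron-like class. In excitatory neuron-like cells NKAIN2 went the other way without passing the test, at 1076 against 679 CPM (log2 fold change 0.67, adjusted p 0.709). The neuron markers summed to 316 to 495 CPM with AcCoc and 425 to 627 CPM with AcMor in ciliated or ependymal-like cells, and their part in the result was not tested. In cluster 1, which held 617 of the 1117 cells of this class, NKAIN2 was at 20.8 to 26.4 CPM with AcCoc and 21.6 to 96.0 with AcMor, overlapping (log2 fold change -1.11, adjusted p 0.971). There edgeR called 1 of 10457 genes, DSCAML1, which was lower with AcCoc (adjusted p 0.000595) and was not called in the class as a whole. Of the clusters in this class, cluster 15 had the highest NKAIN2 level, with 44.9 to 145 CPM with AcCoc and 223 to 446 with AcMor. It was a smaller share of each AcCoc tag (2.45, 2.14, 2.33 and 1.90%) than of each AcMor tag (2.82, 3.45, 2.79 and 3.70%), with an adjusted p of 0.210, and its part in the result was likewise not tested.

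The genes of lowest p over all cells are given as values, since none passed in edgeR. The 4 higher with AcCoc included UGT8, which makes the galactosylceramide of myelin, at 8.67, 7.32, 9.17 and 8.44 CPM against 4.49, 5.27, 5.95 and 5.20 CPM. Its log2 fold change was 0.67 (95% interval 0.32 to 1.02, edgeR adjusted p 0.991). GPR139, an orphan receptor known to oppose mu-opioid receptor signalling, was at 31.3, 28.3, 33.7 and 34.9 CPM against 25.1, 22.9, 24.5 and 22.5 CPM (0.43, 0.19 to 0.67, adjusted p 0.991). The AcCoc tags lay above the AcMor tags for both genes. By class, UGT8 was at 0.27 in excitatory neuron-like cells and below the filter elsewhere. GPR139 was at 0.28 in excitatory neuron-like cells, at -0.94 in neuron-like cells and below the filter in ciliated or ependymal-like cells. Neither was called by edgeR with its filter.

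SLC17A6, the vesicular glutamate transporter VGLUT2, was at 22.7, 29.6, 21.6 and 24.6 CPM with AcCoc and 20.8, 14.2, 15.2 and 16.3 CPM with AcMor (log2 fold change 0.58, 0.26 to 0.91, adjusted p 0.991). It is also among the leading genes of cluster 3, whose share stood higher with AcCoc. By class, SLC17A6 was at 0.58 in excitatory neuron-like cells (adjusted p 0.717 in edgeR) and at 0.37 in neuron-like cells (0.999). It was below the filter in ciliated or ependymal-like cells. The unnamed gene ENSG00000282393 completed the 4, at 3.75 to 4.09 against 1.66 to 2.44 CPM (0.81, 0.39 to 1.23, adjusted p 0.991).

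IQCJ-SCHIP1 had the lowest p over all cells (2.58e-05), with 170, 176, 215 and 200 CPM against 268, 280, 267 and 290 CPM, a log2 fold change of -0.54 (95% interval -0.73 to -0.36) and an edgeR adjusted p of 0.528. MICAL2, an enzyme that oxidises actin and takes filaments apart, was at 33.7, 35.4, 30.6 and 33.6 CPM against 54.0, 64.8, 36.8 and 58.2 CPM (-0.69, -1.01 to -0.37, adjusted p 0.991). FMN1, a formin that builds actin filaments, was at 10.99, 16.7, 9.83 and 8.70 CPM against 21.0, 25.9, 19.6 and 20.2 CPM (-0.89, -1.30 to -0.48, adjusted p 0.991). All 3 genes had separate groups of tags, and so did ENSG00000228714, at 1.79 to 2.69 against 3.49 to 9.31 CPM (-1.44, -2.06 to -0.83, adjusted p 0.991). Of these, DESeq2 called IQCJ-SCHIP1 (adjusted p 0.00373), and edgeR without the filter called IQCJ-SCHIP1 and ENSG00000228714 (0.0240 each). By class, MICAL2 was at 0.48 in excitatory neuron-like, -0.19 in ciliated or ependymal-like and -0.09 in neuron-like cells. FMN1 was at -0.77 and -0.28 in the first and second of these and below the filter in the last. The part of the mix of cells in the values over all cells was not tested.

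Genes of the opioid receptors and monoamine transporters, which the drugs bind or which belong to the same families, were thinly expressed and none was called. OPRM1 was at 3.77, 3.82, 7.77 and 4.22 CPM with AcCoc and 3.82, 3.18, 2.91 and 3.71 CPM with AcMor, with AcCoc tag 3 above the rest and the other tags mixed (log2 fold change 0.51, -0.04 to 1.06). Without AcCoc tag 3 the value was 0.20. The delta, kappa and nociceptin receptors OPRD1 (-0.31, -0.91 to 0.28), OPRK1 (0.34, -0.32 to 0.99) and OPRL1 (-0.24, -1.09 to 0.61) had wide intervals that include 0. With each tag left out, OPRD1 ranged from -0.47 (without AcCoc tag 2) to -0.12 (without AcCoc tag 3), and OPRK1 from 0.18 (without AcCoc tag 1 or 2) to 0.62 (without AcMor tag 2). Among targets of cocaine, SLC6A4 was at 0.01 (-0.57 to 0.59). SLC6A2 and SLC6A3 had 25 and 43 counts over all 8 tags, below the filter on low counts.

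Genes known from comparisons with vehicle were given whatever their result. GPR12, an orphan receptor that raises cyclic AMP, had a log2 fold change of 0.61 (-0.14 to 1.36), which was 0.40 without AcCoc tag 3 and 0.95 without AcMor tag 1. The cortical transcription factor TBR1 was at 0.14 (-0.26 to 0.54) and the long non-coding RNA CYTOR at 0.17 (-0.36 to 0.70). RHEX, with 45 counts in all, was below the filter.

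**Figure D3:**
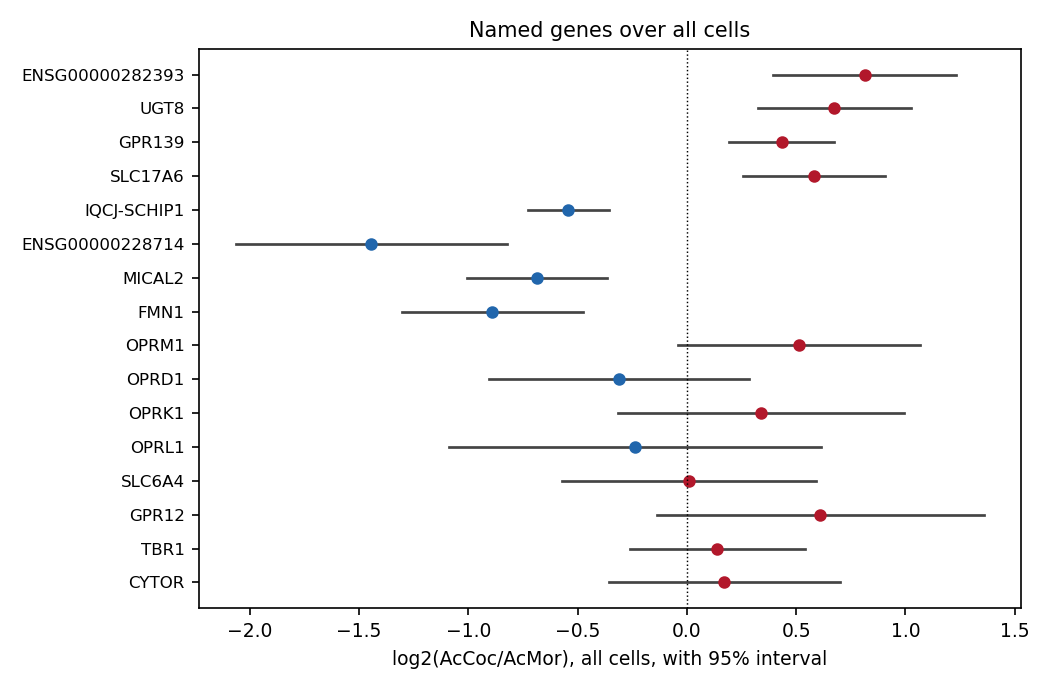
Log2 fold change of AcCoc over AcMor over all cells (horizontal axis, 0 means equal levels) with its 95% interval, for the genes of lowest p, drug target genes and the genes known from vehicle comparisons. Red points are above 0 and blue points below; the first 8 intervals exclude 0, although none passed edgeR's adjusted p, and all 8 others include it.

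Cholesterol and fatty acid synthesis genes, the enzymes and regulators that make membrane lipids, leaned higher with AcCoc over all cells without any call. Of 28 genes tested, 24 had a positive log2 fold change, 9 at an unadjusted p of 0.05 or less, all higher, with a median of 0.24 against 0.0019 over all genes. STARD4, a cholesterol carrier, was at 40.5, 44.0, 38.0 and 45.1 CPM against 26.6, 33.8, 30.4 and 34.7 CPM, with no overlap (0.41, 0.16 to 0.65). ACACA, which makes malonyl-CoA for fatty acids, was at 316, 295, 401 and 397 CPM against 275, 257, 290 and 285 CPM (0.35), again with no overlap. HMGCS1, an early enzyme of the mevalonate pathway, was at 128, 125, 154 and 162 CPM against 94.96, 108, 133 and 100 CPM (0.38), where AcMor tag 3 lay among the AcCoc tags.

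The count varied with the tags and the cells. With each tag left out in turn, without called doublets or with 2 other scalings, 21 to 27 members were higher, 5 to 13 at an unadjusted p of 0.05 or less, with medians from 0.15 (without AcCoc tag 4) to 0.30. The count at that p was 5 without AcCoc tag 3, AcMor tag 1 or AcMor tag 4. In ciliated or ependymal-like cells, 24 of 27 were higher and 11 had an unadjusted p of 0.05 or less, with a median of 0.42, led by the squalene epoxidase SQLE (0.67) and STARD4 (0.67). In that class 346 of all genes were higher at that p (2.54%) and 388 lower (2.85%). The median was 0.12 in excitatory neuron-like cells (19 of 26 higher) and 0.04 in neuron-like cells (13 of 25 higher). With all 12 tags scaled together, HMGCS1 had mean levels of 144 CPM with AcCoc, 110 with AcMor and 107 with Vehic. STARD4 was at 42.3, 31.6 and 35.4 CPM, so that Vehic lay nearer to AcMor for both genes. Other members are not set beside Vehic here. These are sums over all cells. Excitatory neuron-like cells, with Vehic cells placed by nearest neighbours, were 4.38 to 9.42% of the Vehic tags against 22.8 to 33.5% of the drug tags. The part of this mix in the Vehic levels was not tested.

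Heat shock chaperones leaned higher in part. Of 18 tested over all cells, 13 had a positive value, and 4 had an unadjusted p of 0.05 or less: the mitochondrial chaperonin HSPD1 (0.30), the co-chaperones HSPA4 (0.28) and HSPH1 (0.36), and HSP90AA1 (0.28). The small heat shock protein CRYAB was lower at that p (-0.40). The median was 0.12 over all cells, 0.22 in excitatory neuron-like cells and 0.29 in ciliated or ependymal-like cells. In neuron-like cells it was -0.03, with 5 of 10 members higher. Over all cells it was 0.07 without AcCoc tag 2 or without AcMor tag 3.

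Extracellular matrix genes leaned lower with AcCoc over all cells. Of 31 tested, 27 had a negative value and 8 an unadjusted p of 0.05 or less, all lower, with a median of -0.28, and none had separate groups of tags. Fibronectin (FN1) was at 403, 465, 364 and 873 CPM with AcCoc and 955, 1490, 694 and 1667 CPM with AcMor, where AcCoc tag 4 lay among the AcMor tags (-1.19, -1.87 to -0.51, edgeR adjusted p 0.991). The collagen VI chain COL6A3 (-0.85) and the proteoglycan lumican (LUM, -0.97) were other examples.

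Of the 8 mesenchymal markers, 7 had a negative value. COL1A1, COL1A2, COL3A1, DCN, LUM and POSTN are in the matrix list too, so the lists are not independent. The markers outside it, PDGFRB and TWIST1, were at -0.54 and -0.37. The summed level of all 8 was 483, 902, 523 and 1344 CPM with AcCoc and 1106, 1430, 687 and 1588 CPM with AcMor. The mesenchymal-like class took 2.00, 3.64, 2.21 and 3.17% of cells in the AcCoc tags and 3.63, 4.91, 2.79 and 7.26% in the AcMor tags (exact permutation p 0.143, 0.571 adjusted over 8 classes). Cluster 13, with 217 of that class's 267 cells, took 2.00, 2.53, 2.21 and 2.33% of the AcCoc tags and 3.63, 3.98, 2.59 and 5.52% of the AcMor tags, without overlap (exact permutation p 0.0286, adjusted 0.210 over 22 clusters). The part of these shares in the matrix values was not tested. Within the 3 classes tested, the matrix list had medians of 0.05 in excitatory neuron-like, -0.01 in ciliated or ependymal-like and 0.03 in neuron-like cells. Members differed in direction: at an unadjusted p of 0.05 or less, 2 were lower and 1 higher in each of the first and second of these classes, and 0 lower and 3 higher (COL6A2, VCAN and LAMA2) in neuron-like cells. FN1 was at 41.9 against 65.6 CPM in excitatory neuron-like cells (-0.64, edgeR adjusted p 0.646, and 0.0329 without the filter on low counts) and at 184 against 252 CPM in ciliated or ependymal-like cells (-0.46, adjusted p 0.906), with overlapping tags in both. In sums over all cells, fewer cells of a type and less RNA per cell cannot be told apart. Over the same tag, doublet and scaling alternatives, 25 to 29 matrix genes were lower. The median ranged from -0.42 (without AcMor tag 3) to -0.13 (without AcMor tag 4), and the number lower at an unadjusted p of 0.05 or less from 5 (without AcCoc tag 1, AcCoc tag 3 or AcMor tag 4) to 13 (without AcMor tag 3).

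**Figure D4:**
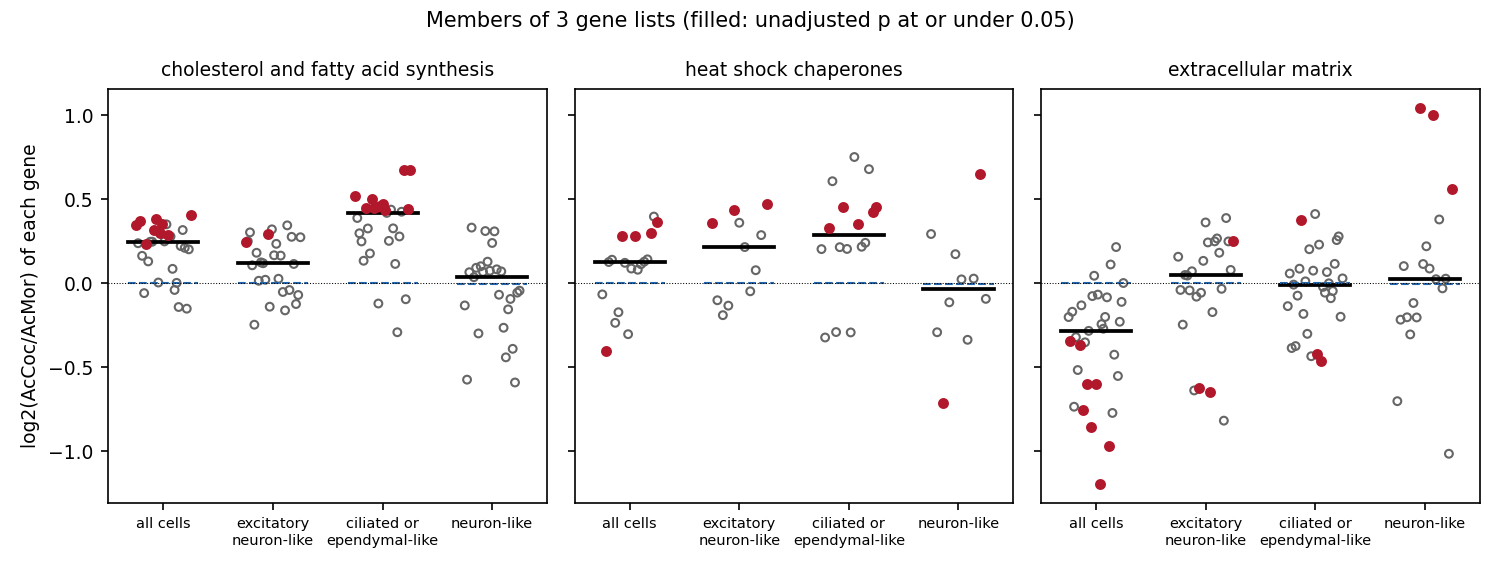
Log2 fold change of AcCoc over AcMor (vertical axis) of each tested member of 3 gene lists, over all cells and in the 3 classes tested. Filled points have an unadjusted p of 0.05 or less, the thick line is the list's median and the dashed line the median of all genes tested; the cholesterol list has its highest median, 0.42, in ciliated or ependymal-like cells, and the matrix list its lowest, -0.28, over all cells.

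Hypoxia and glycolysis genes also leaned lower with AcCoc over all cells, with 21 of 27 negative, a median of -0.15 and 3 at an unadjusted p of 0.05 or less. The median was -0.14 in ciliated or ependymal-like cells, -0.0048 in excitatory neuron-like cells (11 of 22 higher) and 0.02 in neuron-like cells (9 of 16 higher). In excitatory neuron-like cells PDK1 and VEGFA were lower at an unadjusted p of 0.05 or less, no member was higher at that p, and edgeR without the filter called PDK1 (-0.88, adjusted p 0.0110). The 3 genes over all cells were the glucose transporter SLC2A1 (-0.82), the growth factor VEGFA (-0.55) and the kinase PDK1 (-0.45), which keeps pyruvate out of mitochondria. Between 16 and 24 members were lower over the tag, doublet and scaling alternatives. The median over all cells was -0.04 without AcMor tag 2, -0.07 without AcCoc tag 1 and -0.10 without AcMor tag 4.

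Lists nearest to the drugs' known pathways held 0 calls by edgeR over all cells. Of 24 voltage-gated sodium and calcium channel genes, 14 were positive (median 0.03), with the calcium channel subunits CACNB4 (0.54) and CACNB2 (0.21) higher and the sodium channel SCN9A (-0.53) lower at an unadjusted p of 0.05 or less. In excitatory neuron-like cells 5 of 20 were positive (median -0.08), with 2 higher and 2 lower at that p, and edgeR without the filter called CACNB4 (0.40, adjusted p 0.0212). Of 26 immediate early genes, which neurons switch on within minutes of stimulation, 10 were positive and only NPTX2 (0.35) had an unadjusted p of 0.05 or less. Of 5 opioid receptor and peptide genes tested, none did. Of 23 genes of the dopamine, serotonin and noradrenaline system, the aromatic amino acid decarboxylase DDC did (-1.37), at no more than 3.47 CPM in any tag. The cyclic AMP list divided evenly over all cells, with 26 of 49 positive. Of these, KCNJ6 (0.42), CREM (0.24) and PDE1C were higher and PDE7B (-0.54) and ADCY8 lower at an unadjusted p of 0.05 or less.

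In the make-up of the cultures, 0 of 8 named classes passed an exact permutation test with adjustment. With a smallest possible p of 0.0286, a class that differed alone could not have passed, so this count cannot show that shares were equal. Excitatory neuron-like cells were 22.8, 25.4, 33.5 and 33.2% of the AcCoc tags and 27.8, 24.8, 27.7 and 23.7% of the AcMor tags (p 0.371). Ciliated or ependymal-like cells were 18.1, 17.6, 14.4 and 15.2% against 18.1, 19.0, 16.5 and 16.0%. Intermediate progenitor-like cells, which give rise to cortical excitatory neurons, were 4.45, 3.09, 3.49 and 4.86% against 2.22, 2.26, 3.19 and 3.63% (p 0.143, adjusted 0.571). Of the 22 clusters, 3 (clusters 3, 13 and 15, described above) had separate groups of tags, at the smallest possible p. None passed adjustment, and so few clusters at that p could not have passed it. Over all cells, the summed intermediate progenitor markers stood at 27.7 to 34.3 CPM with AcCoc and 21.4 to 25.5 CPM with AcMor. The oligodendrocyte lineage markers summed to 20.4 to 25.7 against 26.8 to 34.6 CPM. The tags of the drugs did not overlap in these sums, which were picked from 19 marker lists after their values were seen and were not tested. Most of the second sum was MBP, whose own tags overlapped, at 18.7 against 24.4 CPM (relative to scaled totals, unlike the sums). A further 2250 cells lay in clusters without a name.

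**Figure D5:**
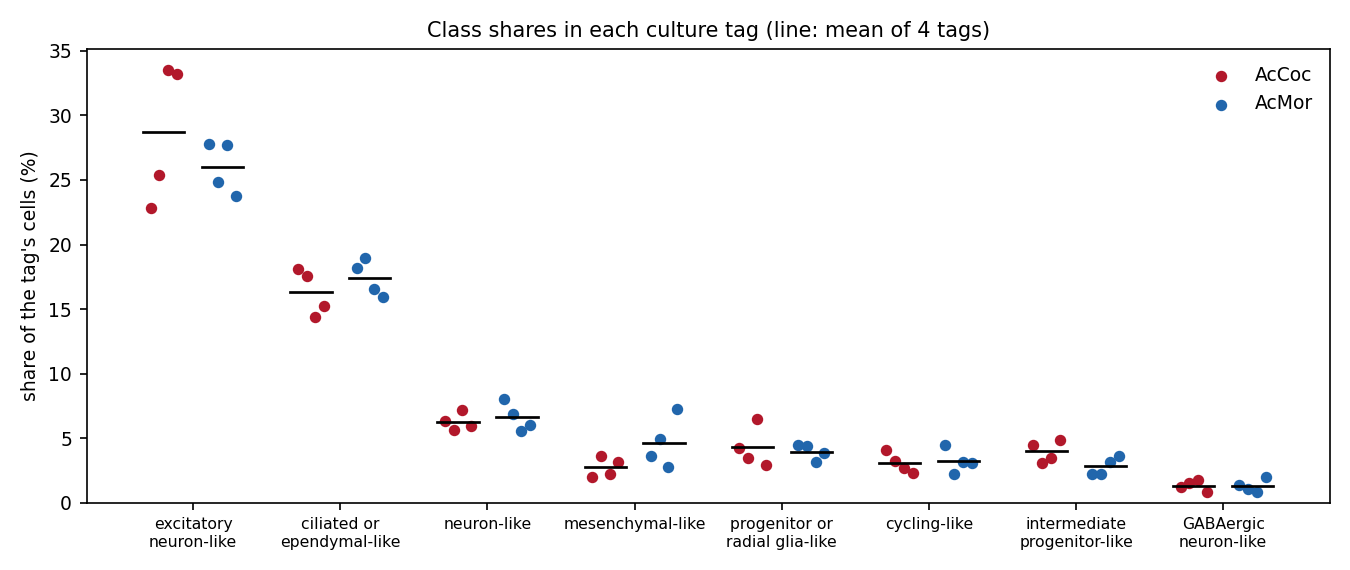
Share of each tag's cells, in percent (vertical axis from 0), in the 8 named classes. Points are the 4 AcCoc (red) and 4 AcMor (blue) tags and lines are means; the groups overlap in every class, as in excitatory neuron-like cells at 22.8 to 33.5% and 23.7 to 27.8%.

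The same contrast in fused organoids, a 3-D arrangement with 4 AcCoc and 3 AcMor tags (6704 cells), shares no tag with the co-culture. Of 23578 genes, edgeR called 0 (0%), with 245 at an unadjusted p of 0.05 or less. Same-numbered tags deviated together there (correlations 0.14 to 0.54), and with tag number as a block, which leaves out AcCoc tag 2, edgeR called 1 gene, higher with AcCoc (adjusted p 0.00180), with 1422 at that unadjusted p. The intervals and the test between arrangements that follow are without the block. Tags varied more there, and the 95% interval lay within 2-fold for 53.0% of genes. Over all organoid cells, the log2 fold change was -0.71 (-1.87 to 0.45) for IQCJ-SCHIP1, -0.55 (-1.41 to 0.30) for ADCY8 and 0.06 (-0.66 to 0.77) for CNTN3, all with intervals that include 0. A test of whether the contrast differed between the arrangements called 0 of 22820 genes by edgeR (0%), with 509 at an unadjusted p of 0.05 or less.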

How the data were processed

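The deposited matrix holds expected counts per gene and cell, which are estimated counts and not always whole. The submitters' processing notes name Salmon 1.7.0, alevin, Seurat 4.1.1 and hg38, with no role given. All columns were used (0 unused). The members and gene lists were chosen with earlier results of these data known.

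Counts were summed per tag, or per tag and class, over all sublibraries and rounded. Genes passing filterByExpr were scaled by TMM and tested with edgeR 4.0.16 (robust quasi-likelihood fit, R 4.3.3), with Benjamini-Hochberg adjustment over all genes of a fit at 0.05. CPM use TMM-scaled totals. DESeq2 1.42.0 and limma 3.58.1 served as alternatives. The fits were tested on simulated data.

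Cells were scaled to 10000 counts and clustered by Leiden (leidenalg 0.10.2) at resolution 0.8 on 30 components of 2000 variable genes, with 20 neighbours. Mitochondrial genes and the genes named over all cells, IQCJ-SCHIP1 among them, were kept out of the variable genes. A cluster was named if at least 3 markers and 40% of a list were seen in at least 10% of its cells at 2-fold or more over other cells. Simulated doublets led to 307 calls (4.63%), which were kept, and the threshold lay below only 50.1% of the simulated ones.

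Genes named over all cells were the 4 of lowest p in each direction with a mean of at least 2 CPM, since none was called, beside drug targets and 4 genes known from vehicle comparisons. Results for some genes are not reported here. Within a class they were those called. Genes named from lists or near a threshold were chosen after their values were seen. Equal tag numbers paired the fused organoid tags, by the correlation of their deviations from the group means (0.46, 0.14 and 0.54), but not the co-culture tags.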

Additional observations from a re-analysis of the deposited data

Results flagged for a closer look

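In 7 of 140 groups of 4 tags, 1 tag lay far from the other 3 (gap over range above Dixon's 95% limit), and chance alone marks about 1 in 20 groups. Over all cells, AcCoc tag 3 stood alone for OPRM1 at 7.77 CPM, AcCoc tag 2 for the serotonin transporter SLC6A4 at 2.57 CPM, AcCoc tag 4 for the collagen COL5A1 at 249 CPM and AcCoc tag 1 for the co-chaperone HSPH1 at 97.1 CPM. Among AcMor tags, tag 1 stood alone for ENSG00000282393 at 1.66 CPM and tag 4 for the collagen COL11A1 at 422 CPM. In ciliated or ependymal-like cells, AcCoc tag 3 stood alone for GALNTL6, a glycosyltransferase-like gene, at 30.6 CPM.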

How the results depend on the processing

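Over all cells, edgeR's count of 0 became 1 with DESeq2 (IQCJ-SCHIP1, adjusted p 0.00373), 2 without a filter on low counts and 2 with tag number as a replicate block, and it was 0 with each tag left out. The blocked calls were FN1 (adjusted p 0.00945) and COL6A3 (0.0214). Same-numbered tags did not deviate together (correlations -0.15 to 0.04), so the numbers do not pair them. In excitatory neuron-like cells the count of 3 became 44 with DESeq2, 87 without a filter, 1 with Vehic tags in the fit, 5 with the replicate block and 2 to 7 with a tag left out (5 without AcCoc tag 1, 5 without AcCoc tag 3, 7 without AcMor tag 2). All alternatives for the ciliated or ependymal-like and neuron-like classes were added after seeing the data. By choices added likewise, the excitatory count was 7 with clusters made without the called genes, 11 in cluster 0, 0 in cluster 3 and 1 in cluster 9. In ciliated or ependymal-like cells the count of 1 became 3 with DESeq2, 26 without a filter, 3 with the replicate block, 0 with clusters made without the called genes and 0 to 2 with a tag left out (0 without AcCoc tag 1, 2 without AcCoc tag 3, 2 without AcMor tag 1). Without a filter neuron-like cells gave 14 calls, and fused organoids gave 1 with the replicate block. Class shares gave 0 under all 11 alternatives, where again a class that differed alone could not have passed adjustment. The causes were not tested. Of 368 recomputed values for 21 gene results, 359 kept their direction. With each tag left out, the log2 fold change ranged from -0.738 to 0.0193 for OPRL1, from -0.174 to 0.295 for SLC6A4, from -0.0035 to 0.283 for TBR1 and from -0.0762 to 0.389 for CYTOR, and SLC6A4 was at -0.0338 without doublets. The lone tags whose omission turned a sign were AcCoc tag 2 for OPRL1, AcCoc tag 2 (-0.0932), AcMor tag 3 (-0.0951) and AcMor tag 4 for SLC6A4, AcCoc tag 3 for TBR1 and AcCoc tag 1 for CYTOR. In cluster 3, IQCJ-SCHIP1 was at 0.55 and CNTN3 at 0.59.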

Other observations

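Both drug groups were also set against vehicle in 1 fit of the 12 co-culture tags (edgeR, 21032 genes), as a description, since both comparisons use the Vehic tags. AcCoc against Vehic gave 1283 called genes and AcMor against Vehic 205. Excitatory neuron-like cells, placed by nearest neighbours, were 4.38 to 9.42% of the Vehic tags against 22.8 to 33.5% of the drug tags, and the mitochondrial share was 1.87 to 3.06% against 3.84 to 4.51%. Their part in these counts was not tested. Of the former, 1277 were tested directly between the drugs: 0 were called by edgeR, 259 had an unadjusted p of 0.05 or less, and for 1198 (93.8%) the 95% interval of the direct difference lay within 2-fold. Of the latter, all 205 were tested directly, with 0 called, 21 at that p and 203 (99.0%) within 2-fold. Over all 20465 genes tested directly, 946 had that p and 18428 (90.0%) lay within 2-fold. Each set was chosen through drug tags that the direct comparison also uses. Passing an adjusted p also favours genes with narrow intervals, so the shares within 2-fold cannot show that the drugs act alike on these genes.

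Cell cycle genes and neuron markers were further lists with a lean over all cells. Of 28 cell cycle genes, 22 had a positive log2 fold change with AcCoc (median 0.12), and of 10 neuron markers 10 did (median 0.25), with 0 called by edgeR in either list. The neuron markers summed to 2776, 2859, 3555 and 3528 CPM in AcCoc tags 1 to 4 and to 2601 to 3164 CPM in the AcMor tags, overlapping. AcCoc tags 3 and 4 also had the largest shares of excitatory neuron-like cells (33.5 and 33.2%), whose part was not tested. In neuron-like cells the leading genes were TMEM132C, a membrane protein (log2 fold change 1.60), LMX1B, a transcription factor of monoaminergic and spinal neurons (-2.38), and PCBP3, an RNA-binding protein (0.66), none of which passed adjustment in edgeR with its filter.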
